A study of Rattus norvegicus with 6 samples.

Results

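Parvalbumin, calbindin and calretinin are encoded by Pvalb, Calb1 and Calb2 and were taken here as 3 of the 26402 Ensembl gene IDs measured in the rat superior colliculus. The rows were chosen by ID: ENSRNOG00000006471 for Pvalb, ENSRNOG00000007456 for Calb1 and ENSRNOG00000016977 for Calb2. The deposited tables hold no symbols and the reference table at hand holds 0 Ensembl IDs, so the symbols are those of the rule that chose the rows and were not checked against a second source. All 3 passed the filter on low values, a mean of at least 1 FPKM (the fragment count of a gene divided by its transcript length and by the size of the library), as did 12351 IDs in all.

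These proteins bind calcium through EF-hand motifs and act mainly as mobile buffers that shape calcium signals in the cytoplasm of neurons. Parvalbumin binds calcium with a slow onset because its sites also hold magnesium, whereas calbindin and calretinin bind faster. In the superficial colliculus, which receives input from the retina, antibodies to the 3 proteins are widely used to mark different, layered sets of neurons. The parvalbumin set in the colliculus includes both inhibitory and excitatory cells.

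The tissue was the superficial superior colliculus, dissected from rats of the Sprague Dawley strain aged 20 postnatal days. In the closed group the lids were glued shut from day 14 to day 20, and in the open group the eyes were open over those days. Each group had 3 libraries of polyadenylated RNA, 1 from each of batches A, B and C, and no other treatment or allele is labelled. What a batch stands for and how many animals gave each library are not labelled, so each p-value reflects only how these libraries vary, which may be technical. The comparison asks how preventing eye opening bears on transcript levels in this tissue.

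The libraries differed by batch in the FPKM table as a whole. Summed FPKM over all IDs was 332862 in closed and 331008 in open eyes of batch C, and lay between 385309 and 398847 in the other 4 libraries. Depth is unknown, as FPKM values carry no read totals. The labelled tissue was not checked against its markers, since other IDs could not be matched to symbols.

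Calb2 was the most abundant of the 3 transcripts per unit of length, Calb1 stood next and Pvalb was lowest, and this order held in each of the 6 libraries. The highest Pvalb value (17.4 FPKM) lay below the lowest Calb1 value (28.7 FPKM), and the highest Calb1 value (39.3 FPKM) lay below the lowest Calb2 value (60.5 FPKM). No neighbours in this order therefore overlapped. By mean level, 68.2% of the tested IDs lay below Pvalb, 86.8% below Calb1 and 95.3% below Calb2. In a bulk sample, fewer cells of a type and less RNA per cell cannot be told apart.

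Pvalb, which encodes parvalbumin, had an FPKM of 17.4, 17.1 and 10.9 in the closed libraries of batches A, B and C. In the open libraries of the same batches its FPKM was 16.8, 16.8 and 12.2. Both batch C libraries were low and the other 4 lay close together, so the groups overlapped. The group levels were 15.1 ± 3.68 FPKM for closed eyes and 15.3 ± 2.68 FPKM for open eyes (mean ± SD of n = 3 libraries each; two-sided exact permutation p = 1, unpaired and paired by batch).

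Calb1, which encodes calbindin, had an FPKM of 35.1, 36.1 and 30.3 in closed eyes in batches A, B and C. In open eyes it had an FPKM of 39.3, 32.2 and 28.7. The highest and the lowest of the 6 values were both from open eyes, and the closed values lay between them. The group levels were 33.8 ± 3.08 FPKM for closed eyes and 33.4 ± 5.38 FPKM for open eyes (mean ± SD of n = 3 libraries each; two-sided exact permutation p = 1, unpaired and paired).

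Calb2, which encodes calretinin, had an FPKM of 83.5, 81.4 and 60.5 in closed eyes in batches A, B and C. In open eyes its FPKM was 83.4, 76.4 and 62.5. As for Pvalb, both batch C libraries were below the other 4, and the groups overlapped. The group levels were 75.1 ± 12.7 FPKM for closed eyes and 74.1 ± 10.6 FPKM for open eyes (mean ± SD of n = 3 libraries each; two-sided exact permutation p = 0.9 unpaired and 0.75 paired). With 3 libraries against 3, no unpaired p under 0.1 and no paired p under 0.25 can be reached. For 0 of the 3 genes did the closed and open values lie apart, against 3.02% of all tested IDs.

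**Figure D1:**
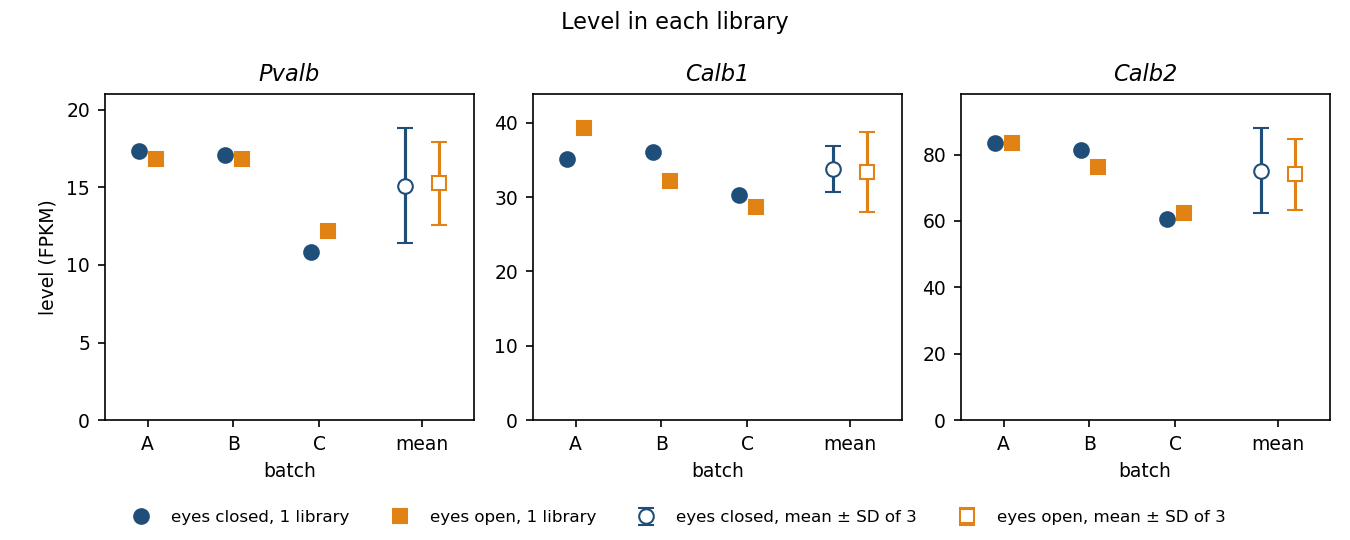
Levels of Pvalb, Calb1 and Calb2 in FPKM (vertical axes start at 0) for each library by batch, with filled circles for closed and filled squares for open eyes. Hollow symbols give the mean ± SD of the 3 libraries of a group. The batch C libraries are the lowest for each gene, and the group means of a gene nearly coincide.

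None of the 3 transcripts passed the test of closed against open eyes. The test was limma, a linear model fitted across all 12351 IDs on log2(FPKM + 0.5), with p-values adjusted over all of them at a threshold of 0.05. Differences on this scale slightly understate changes of low transcripts. For Pvalb the log2 fold of closed over open was -0.03 (SE 0.21, limma adjusted p = 1). For Calb1 it was 0.03 (SE 0.15, limma adjusted p = 1), and for Calb2 0.02 (SE 0.18, limma adjusted p = 1). This fit called 0 of 12351 IDs (0%), with 67 at an unadjusted p under 0.05, so 0 of 3 is also the share among all IDs. The sign of these small folds was not fixed: it turned for Pvalb without the closed library of batch C (0.18) or with library medians equalised (0.0019), and without the open library of batch C for Calb1 (-0.07) and Calb2 (-0.10).

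The batch letters pair the libraries, and a fit with batch as a replicate block narrowed the intervals. The SE fell to 0.07 for Pvalb, 0.07 for Calb1 and 0.06 for Calb2, and the limma adjusted p was 0.936, 0.945 and 0.964. That fit called 1 ID (0.0081%), which was none of these 3. With the block, 780 of 12351 IDs had an unadjusted p under 0.05, against 67 without it. The fit without the block ignores the pairing and leaves batch differences in its residual spread, so it is the more conservative. With the block, the 95% interval of closed over open ran from 0.88-fold to 1.09-fold for Pvalb, from 0.907-fold to 1.14-fold for Calb1 and from 0.919-fold to 1.11-fold for Calb2. Without it, the intervals ran from 0.697-fold to 1.37-fold, from 0.798-fold to 1.30-fold and from 0.755-fold to 1.35-fold. A difference of 1.5-fold lies outside all of these intervals, but smaller ones within them are compatible with the data. The intervals are per gene, with no adjustment over IDs. An interval inside 1.5-fold with the block was common, at 96.6% of tested IDs.

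Within batches, the sign of the difference was mixed for each gene. Pvalb in closed eyes stood 3.27% above open eyes in batch A, 1.64% above them in batch B and differed from them by -10.9% in batch C. Calb1 in closed eyes differed from open eyes by -10.6% in batch A, 12.2% in batch B and 5.58% in batch C. Calb2 differed by 0.205%, 6.54% and -3.18% in batches A, B and C. So 0 of the 3 genes kept 1 direction in all 3 batches, against 27.9% of tested IDs. In the FPKM fit the folds were small among all IDs, whose median log2 fold was -0.034. A smaller size of log2 fold was found for 24.7% of tested IDs in the case of Pvalb, 21.7% for Calb1 and 13.3% for Calb2. This low rank holds for the FPKM fit only, as the folds of the authors' deposited table ranked higher.

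**Figure D2:**
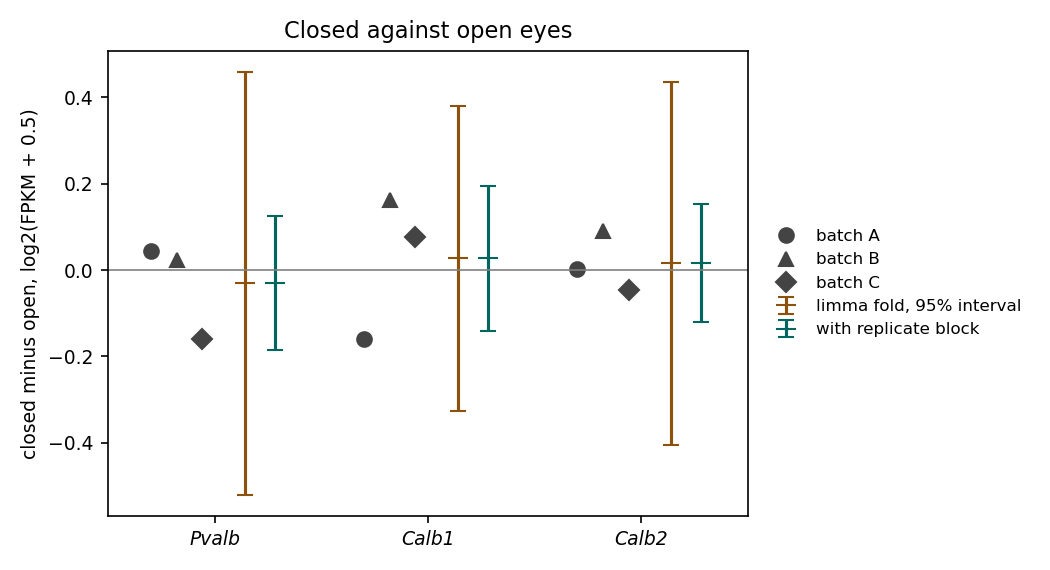
Closed minus open on the log2(FPKM + 0.5) scale (vertical axis) for each gene. Grey symbols are single batches, and bars are the limma fold with its 95% interval, without and with batch as a replicate block. Each gene has batches on both sides of 0, and each interval includes 0.

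The authors' own count-based comparison also called none of the 3 genes. In the authors' deposited table, whose fold is turned here to closed over open, the log2 fold was 0.05 for Pvalb (unadjusted p = 0.521), 0.12 for Calb1 (unadjusted p = 0.15) and 0.07 for Calb2 (unadjusted p = 0.29). The adjusted p in the authors' deposited table, which names DESeq2, was 1 for each, and the table called 7 of 20347 IDs (0.0344%). Its sign for Pvalb was opposite to that of the FPKM fold, with both values near 0. Calb1 stood nearest to a difference there, yet 7.6% of the IDs in the authors' deposited table had a smaller p. By size of log2 fold, the 3 genes ranked higher there than in the FPKM fit. A smaller size was found for 70.7% of its IDs in the case of Pvalb, 93.0% for Calb1 and 80.4% for Calb2. The folds of the authors' deposited table rest on the same 6 libraries and are no second measurement.

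The authors' deposited table also gives an idea of the reads behind each gene. Its mean normalized count was 465.4 for Pvalb, 1054 for Calb1 and 3228 for Calb2. Read as a typical count per library, these would carry a Poisson error of 4.64%, 3.08% and 1.76%, which covers counting error only.

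The 3 genes did differ by batch. With eye condition and batch in 1 limma fit, Pvalb (adjusted p = 0.00243), Calb1 (adjusted p = 0.0385) and Calb2 (adjusted p = 0.00441) differed between batches. This was common, since 49.7% of tested IDs did so, so the 3 of 3 is read against that share. For Calb1 the limma adjusted p was 0.0547 without the closed library of batch B, 0.138 without the closed library of batch C, 0.144 without open A and 0.236 without open C. With batch A left out, Calb1 did not pass either (limma adjusted p = 0.0798), while Pvalb and Calb2 did. With batch C left out, none of the 3 passed (limma adjusted p of 0.935, 0.443 and 0.401 for Pvalb, Calb1 and Calb2), and 0.13% of tested IDs did.

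Batch C held the low values, most clearly for parvalbumin. The mean level of Pvalb was 17.1 FPKM in batch A, 17 FPKM in batch B and 11.5 FPKM in batch C. For Calb2 the batch means were 83.4, 78.9 and 61.5 FPKM, and for Calb1 they were 37.2, 34.1 and 29.5 FPKM. Each gene thus had both batch C libraries below the other 4, which held for 51.7% of tested IDs.

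On the log2 scale, batch C minus the mean of A and B was -0.55 for Pvalb, -0.40 for Calb2 and -0.27 for Calb1, where the median over all tested IDs was -0.21. The place of each gene among all IDs shows how far it stood from that common shift. A lower value was found for 8.52% of tested IDs in the case of Pvalb, 21.3% for Calb2 and 40.4% for Calb1. The low Pvalb level was present in both groups, with log2 differences of -0.64 in closed and -0.45 in open eyes.

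**Figure D3:**
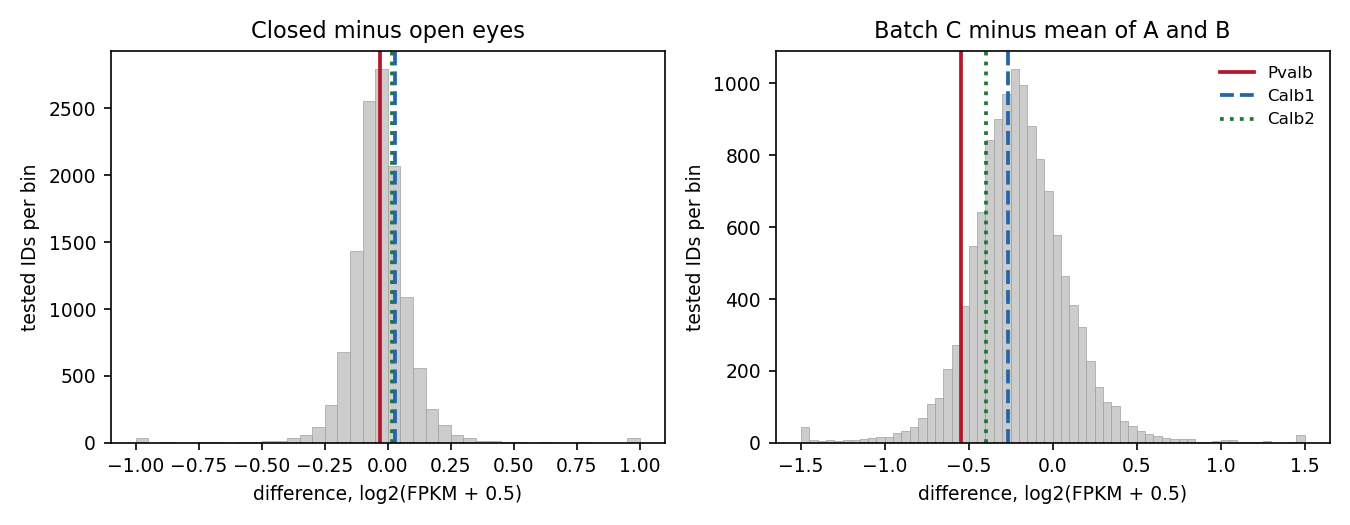
Number of tested IDs per bin (vertical axes) by the log2 difference of closed minus open eyes in the blocked fit (left) and of batch C minus the mean of batches A and B (right); the end bins also hold values beyond the axis. Lines mark Pvalb, Calb1 and Calb2. The 3 genes sit near the middle on the left, and on the right Pvalb lies at -0.55, in the lower tail.

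Setting the libraries to a common scale divides all genes of a library by the same number, so by design the batch difference of each gene shifts nearly alike. The largest remainder was thus left for parvalbumin, which had the largest difference to begin with. Batch C minus the mean of A and B was then -0.33 for Pvalb, -0.17 for Calb2 and -0.04 for Calb1 on the log2 scale. For this, each value was divided by its library's summed FPKM and multiplied by 1000000, which gives scaled units. Calb1 stood at 88, 93.2 and 91.1 scaled units in closed and 101, 83.4 and 86.7 scaled units in open eyes of batches A, B and C. No batch stood apart for Calb1 on this scale (limma adjusted p = 0.668 between batches). Calb2 had 209, 210 and 182 scaled units in closed and 214, 198 and 189 scaled units in open eyes. Batch C was still lowest for Calb2, without passing the test (limma adjusted p = 0.166).

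Pvalb had 43.5, 44.3 and 32.6 scaled units in closed and 43.1, 43.7 and 36.8 scaled units in open eyes. The 4 libraries of batches A and B thus lay between 43.1 and 44.3 scaled units, and both batch C libraries lay below them. Over the 6 libraries the coefficient of variation was 19% for Pvalb, 11.7% for Calb1 and 14.1% for Calb2 in FPKM, and 11.8%, 6.61% and 6.48% in scaled units. The test between batches still passed for Pvalb on this scale (limma adjusted p = 0.0311), as it did when library medians were equalised (limma adjusted p = 0.0351). These scalings left 27.2% and 30.3% of tested IDs called. With medians equalised and 1 library left out, the limma adjusted p for Pvalb ranged from 0.06 to 0.152 and no longer passed. Calls fell over all IDs too, to between 190 and 2244 of 12351 in these fits, against 3739 with all 6 libraries. On neither scale did any of the 3 genes pass the test of closed against open eyes.

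A ratio of FPKM between transcripts of 1 library is not changed when that library is divided by a constant. Calb2 stood 4.53-fold to 5.57-fold above Pvalb, with a mean of 5.04 ± 0.454 for closed eyes and 4.87 ± 0.304 for open eyes (± SD, 3 libraries each). Calb1 stood 1.91-fold to 2.79-fold above Pvalb, with a mean of 2.31 ± 0.421 for closed eyes and 2.20 ± 0.252 for open eyes (± SD, 3 libraries each). Calb2 stood 1.995-fold to 2.38-fold above Calb1, with a mean of 2.21 ± 0.197 for closed eyes and 2.22 ± 0.133 for open eyes (± SD, 3 libraries each). The highest ratio over the lowest was 1.19 for Calb2 to Calb1, 1.23 for Calb2 to Pvalb and 1.46 for Calb1 to Pvalb.

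None of the 3 ratios differed between closed and open eyes by more than the spread of the libraries. With 0.5 FPKM added to both genes, the closed-minus-open differences of the log2 ratio were -0.06 for Pvalb to Calb1, -0.05 for Pvalb to Calb2 and 0.01 for Calb1 to Calb2. Their exact two-sided permutation p was 0.8, 0.7 and 1 unpaired and 0.75, 0.5 and 1 paired by batch, and each became 1 when adjusted over the 3 ratios. For each pair of genes, 2 of 3 batches showed the direction of the mean difference. The library with the lowest Pvalb relative to both other genes was closed C, where Calb1 was 2.79 times and Calb2 was 5.57 times Pvalb.

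**Figure D4:**
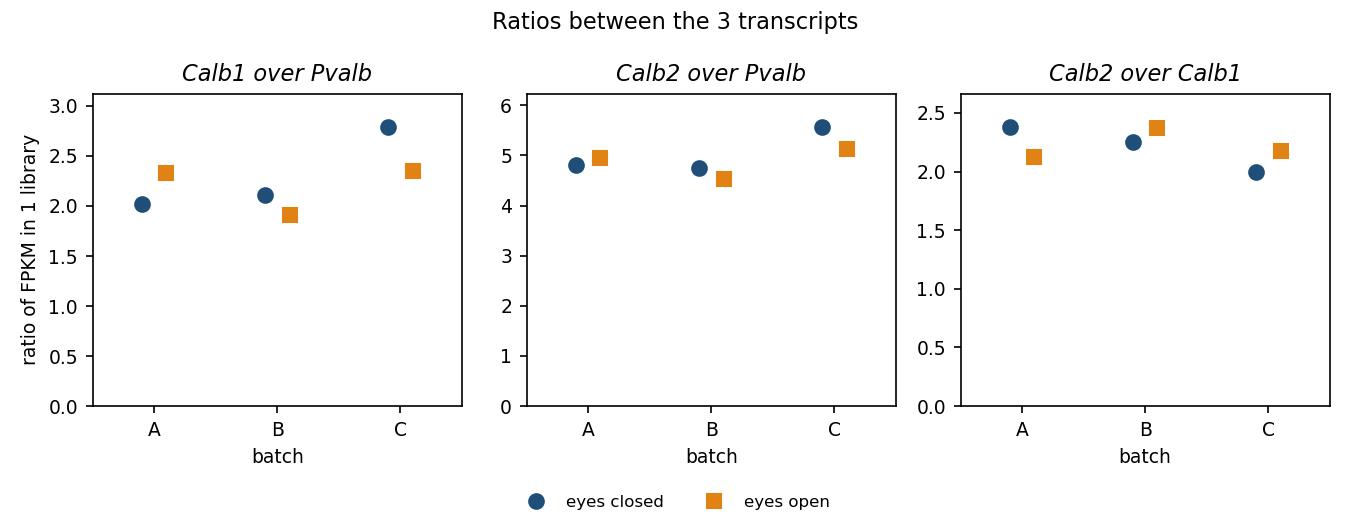
Ratio of FPKM between the transcripts (vertical axes start at 0) in each library by batch, with circles for closed and squares for open eyes. Closed and open points cross from batch to batch, and the closed library of batch C has the highest ratios to Pvalb (2.79 and 5.57).

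The profiles of the 3 genes over the 6 libraries were alike to different degrees. Likeness was measured as the root mean square difference between log2(FPKM + 0.5) profiles, each centred on its own mean, so a smaller value is more alike. It was 0.086 between Pvalb and Calb2, 0.0898 between Calb1 and Calb2 and 0.172 between Pvalb and Calb1. The calretinin profile thus lay between the other profiles. Among IDs that varied at least 80% as much as the gene in question, 6.5% were nearer to Pvalb than Calb2 was, and 47.1% were nearer to Pvalb than Calb1 was. Calb2 and Calb1 themselves varied less than that (SD on the log2 scale of 0.211 and 0.166, against 0.287 for Pvalb), so size of variation is part of their distance. Seen from Calb2, 12.3% of such IDs were nearer than Pvalb and 14.4% nearer than Calb1. Seen from Calb1, 7.46% were nearer than Calb2 and 52.1% nearer than Pvalb.

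The single ID nearest to each gene followed it closely. For Pvalb it was ENSRNOG00000003809 at a distance of 0.0244, with 43.7, 42.2 and 27.3 FPKM with closed eyes and 41.6, 43.7 and 30.8 FPKM with open eyes of batches A, B and C. For Calb1 it was ENSRNOG00000002343 at 0.0208, with 388, 386 and 338 FPKM with closed eyes and 423, 357 and 317 FPKM with open eyes. For Calb2 it was ENSRNOG00000022742 at 0.0172, with 5.02, 5.02 and 3.56 FPKM with closed eyes and 5.13, 4.55 and 3.62 FPKM with open eyes. These were the nearest of 3818, 8815 and 6753 candidates over only 6 libraries, whose median distances were 0.178, 0.167 and 0.157, and all of the profiles share the batch pattern.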

How the data were processed

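The authors deposited FPKM values for 6 libraries and the results of a comparison that names DESeq2, per the file headers. The submitters' processing notes name STAR 2.3.14z, featureCounts 1.4.4, Cufflinks 2.1.1, DESeq2 1.4.1 and build rn5. No source used here gives the annotation or filters. In the authors' deposited table each ID has a signal value, read from its scale as a mean normalized count. It also has a deposited log2 fold and deposited p-values, raw and adjusted. Its log2 fold ran opposite to FPKM (rank correlation -0.75 across 12344 IDs) and was turned to closed over open. The name of the authors' comparison puts closed before open, so the turn rests on that correlation alone.

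Closed and open were compared with limma 3.58.1 in R 4.3.3 (trend and robust moderation, two-sided p, Benjamini-Hochberg adjustment) on log2(FPKM + 0.5), with exact permutation tests in scipy 1.17.1. FPKM are not counts, so no count model was fitted. The limma code was tested on simulated data. With group means removed, the closed and open library of a batch correlated at 0.361 to 0.525, so the batch letter, a label shared by both groups, pairs them. Alternatives were other pseudocounts, filters, scalings and moderation, the block, and libraries or batches left out. The nearest ID to each gene was the rule for IDs named beyond the 3 genes. The 13 lists of markers and calcium genes that were drawn up could not be matched to IDs and were not used, and protein sequences were not used here. The 3 genes, the lists and the tests were chosen with earlier results of these data known.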

Additional observations from a re-analysis of the deposited data

How the results depend on the processing

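None of the 3 genes was called between closed and open eyes in any of 24 alternatives each, with a lowest limma adjusted p of 0.785 for Pvalb, 0.879 for Calb1 and 0.705 for Calb2. The direction of so small a fold was not stable. For Pvalb it turned to 0.0019 with median scaling, with and without the replicate block, and to 0.034 without batch C, paired or not. It ranged from -0.18 without open C to 0.18 without closed C when 1 library was left out. For Calb1 it turned to -0.041 and for Calb2 to -0.022 without batch B, paired or not, and single libraries left out gave -0.074 to 0.15 and -0.10 to 0.16. The ratios moved from -0.14 to 0.081 (Pvalb to Calb1), -0.084 to 0.020 (Pvalb to Calb2) and -0.061 to 0.066 (Calb1 to Calb2) with 1 library left out, and the paired test changed no call.

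Over all IDs, limma called 1 with the replicate block and 0 to 3 with 1 library left out. It called 3, 5 and 3 without batches A, B and C, and 6, 16 and 2 with the block; fewer samples were fitted there. Between batches, 6138 IDs became 3739 with median scaling, 3361 with sum scaling and 16 without batch C, and 1658 to 4875 with 1 library left out. Without batch A they became 4626, and without batch B 5106. The batch call was lost for Calb1 with median scaling (limma adjusted p = 0.386), sum scaling (0.668) and without batch C (0.443). It was also lost for Calb1 without batch A (0.0798) and in part without single libraries (0.0286 to 0.236), but kept without batch B (0.0222). It was lost for Calb2 with median scaling (0.0861), sum scaling (0.166) and without batch C (0.401), and for Pvalb without batch C (0.935). Without batch A or B the call was kept for Pvalb (0.00566 and 0.00291) and Calb2 (0.0154 and 0.00503). The batch test with its alternatives, the contrast of batch C with A and B, and sum scaling were chosen after seeing the data. Gene list tests were not run, because IDs could not be matched to symbols.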
